A study of Mus musculus with 9 samples.

Results

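The members of the set described here are 10 genes that mark the surface layer of articular cartilage or the provisional matrix, the loose network of adhesive proteins that cells lay down in development and repair. They were chosen by name from the 55471 genes in the deposited files, with earlier results of these data known. They are Prg4 (lubricin), its regulator Creb5, and Clu, Cilp, Cilp2, Dkk3, Abi3bp, Thbs4, Tnc and Fn1. Their levels were measured by RNA sequencing of 9 cultures of primary mouse articular chondrocytes, 3 each of Control, Ad-OSCAR and Ad-OSCAR with 5-ASA. The cells were taken from the knee ends of femur and tibia (condyles and plateaus) of wild-type mice at postnatal day 5, and the labels give no strain. According to the labels, they were cultured for 3 days, exposed to an adenovirus for 2 h at a multiplicity of infection of 400 and kept for 36 h before 5-ASA was given, while the study's methods give other amounts of virus and other times. Ad-OSCAR makes the cells express OSCAR, an immunoglobulin-like receptor for collagen. The methods describe the Control cells as infected with a control adenovirus and all plates as coated with a collagen peptide that OSCAR binds, so virus and peptide are shared by the 3 groups. 5-ASA (5-aminosalicylic acid, or mesalazine) is an anti-inflammatory drug, and there were no Control cultures with 5-ASA. The labels do not say whether the 3 cultures of a group came from separate animals, so the p-values measure only the spread between these cultures.

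Total counts were 19733448 to 28192740 per culture. Oscar itself had 3 to 4 counts in the Control cultures, 173445 to 187278 with Ad-OSCAR and 80766 to 94199 with 5-ASA, so the treated cells also held less of the overexpressed transcript (1.96-fold less than Ad-OSCAR alone). That difference accompanies every 5-ASA comparison here, and its part in them was not tested. The label of the cells was checked on 9 chondrocyte markers (Col2a1, Acan, Sox9, Col9a1, Col11a2, Hapln1, Matn1, Comp and Cnmd), whose summed level was 38574.5 to 44277 CPM (counts scaled to library size with TMM, the trimmed mean of M values) in Control, 2373 to 2703 with Ad-OSCAR and 2833 to 3285 with 5-ASA. All 9 were lower with Ad-OSCAR than in Control, and 5 of 9 were higher with 5-ASA than with Ad-OSCAR (edgeR's quasi-likelihood test, Benjamini-Hochberg adjusted p below 0.05), or 2 higher and 1 lower on log2(TPM + 1) with limma, where TPM is the length-scaled abundance of transcripts in a library.

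The surface layer of articular cartilage faces the joint space. Its flattened chondrocytes secrete lubricin, a large mucin-like glycoprotein that coats the surface and lowers friction. CREB5, a leucine-zipper transcription factor of the family that holds ATF2 and ATF7, is needed for lubricin expression in these cells. Fibronectin and tenascin-C form the scaffold of the provisional matrix and are recognised by integrins. Thrombospondin-4, a pentameric matricellular protein, and ABI3BP, a secreted matrix-binding protein, belong to the same environment. Clusterin is a secreted chaperone, DKK3 is a divergent member of the dickkopf family of secreted Wnt modulators, and CILP and CILP2 are related secreted proteins of the cartilage interterritorial matrix.

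The sequence just upstream of a gene is shown for Creb5, Thbs4 and Tnc, because these members moved to different degrees and their start sites are in the RefSeq promoter table of build GRCm38.p6. The table held entries for 5 of the 10 members (Creb5, Thbs4, Tnc, Cilp and Cilp2), each a window of 300 bases that runs from 250 bases before a start site to 50 after it. Prg4, Clu, Dkk3, Abi3bp and Fn1 were not matched. Each window was searched on both strands for the cAMP response element (CRE, TGACGTCA), which is the site that CREB and ATF proteins bind, for its shorter form TGACG, for the AP-1 site TGANTCA and for the TEAD site GGAATG. Among all 32851 windows of this length in the table, 1.79% held the CRE, 20.8% its shorter form, 7.81% the AP-1 site and 14.7% the TEAD site. Capitals below mark each match, on the strand of the gene, and the shorter form also matched inside the CRE. Positions are counted in bases from the start site to the first base of the match.
Creb5, upstream start (chr6:53287053-53287352, plus strand): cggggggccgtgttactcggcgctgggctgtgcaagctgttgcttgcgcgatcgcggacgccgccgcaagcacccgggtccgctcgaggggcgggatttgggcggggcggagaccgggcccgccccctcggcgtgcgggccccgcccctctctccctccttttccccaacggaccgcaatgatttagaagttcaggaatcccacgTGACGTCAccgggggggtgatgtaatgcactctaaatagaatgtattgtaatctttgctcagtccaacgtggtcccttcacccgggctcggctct
Creb5, downstream start (chr6:53573124-53573423, plus strand): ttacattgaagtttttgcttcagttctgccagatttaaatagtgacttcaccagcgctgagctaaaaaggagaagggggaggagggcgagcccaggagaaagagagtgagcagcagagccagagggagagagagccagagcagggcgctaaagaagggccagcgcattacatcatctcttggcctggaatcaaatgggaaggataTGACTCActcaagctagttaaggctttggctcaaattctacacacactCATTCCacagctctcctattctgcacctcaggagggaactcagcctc
Thbs4 (chr13:92794769-92795068, minus strand): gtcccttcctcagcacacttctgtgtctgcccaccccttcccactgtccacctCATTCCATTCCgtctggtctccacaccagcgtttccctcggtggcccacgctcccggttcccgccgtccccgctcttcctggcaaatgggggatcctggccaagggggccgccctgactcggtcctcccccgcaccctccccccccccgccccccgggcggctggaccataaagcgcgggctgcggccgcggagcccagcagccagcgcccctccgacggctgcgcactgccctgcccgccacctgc
Tnc (chr4:64046966-64047265, minus strand): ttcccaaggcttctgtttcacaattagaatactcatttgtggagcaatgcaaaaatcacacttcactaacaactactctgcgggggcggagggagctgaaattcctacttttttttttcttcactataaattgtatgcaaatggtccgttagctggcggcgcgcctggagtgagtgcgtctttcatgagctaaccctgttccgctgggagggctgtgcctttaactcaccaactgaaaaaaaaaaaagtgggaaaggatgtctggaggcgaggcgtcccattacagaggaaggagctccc

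The upstream Creb5 window held 1 CRE, at position -45. The downstream Creb5 window held 1 AP-1 site, also at position -45, and 1 TEAD site on the reverse strand. Thbs4 held 2 overlapping TEAD sites on the reverse strand. None of the 4 motifs was found in either Tnc window or in those of Cilp and Cilp2. These matches describe letters in a window and were not tied to any binding measurement.

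OSCAR overexpression raised lubricin mRNA by 3.64-fold, a larger change than that of its regulator. Prg4 (ENSMUSG00000006014.16; GENCODE M21, GRCm38, chromosome 1, 150449412 to 150466165, minus strand) stood at 241, 256 and 243 CPM in the Control cultures, at 906, 893 and 893 CPM with Ad-OSCAR and at 779.8, 831 and 768 CPM with 5-ASA. Each Ad-OSCAR culture lay above every Control culture. The log2 fold change was 1.86 (SE 0.044, adjusted p = 9.80e-17 over 15362 genes, edgeR). Part of Prg4 lies opposite Tpr. The study's methods name a stranded library kit, but whether counting was stranded is not given in the sources used here. Tpr itself, with 3770 to 6395 counts, had a log2 fold change of 0.026 (adjusted p = 0.652, edgeR).

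Creb5 (ENSMUSG00000053007.9; chromosome 6, 53287270 to 53700376, plus strand) was present at a low level, with 154 to 338 counts in any culture. It stood at 7.27, 7.73 and 8.14 CPM in Control, at 11.5, 10.7 and 11.8 CPM with Ad-OSCAR and at 11.2, 11.6 and 11.3 CPM with 5-ASA. The Control and Ad-OSCAR values did not overlap, whereas the treated and untreated Ad-OSCAR values did. OSCAR overexpression raised it by 1.47-fold (log2 fold change 0.56, SE 0.085, adjusted p = 1.43e-05, edgeR).

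Of the scaffold proteins, tenascin-C rose most and fibronectin least. Tnc (ENSMUSG00000028364.15; chromosome 4, 63959785 to 64047015, minus strand) stood at 379, 391 and 387 CPM in Control, at 1804, 1839.8 and 1735 CPM with Ad-OSCAR and at 2037, 2046 and 2144 CPM with 5-ASA, so the 3 groups occupied separate ranges. The rise with Ad-OSCAR was 4.64-fold (log2 fold change 2.22, SE 0.041, adjusted p = 3.94e-18, edgeR), a change about as large on the log2 scale as the fall of Clu given below. A processed transcript on the other strand, 8030451A03Rik, had 2 to 9 counts in Control and 51 to 68 with Ad-OSCAR, against 7331 to 53158 for Tnc in the same cultures.

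Fn1 (ENSMUSG00000026193.15; chromosome 1, 71585520 to 71653200, minus strand) was among the most abundant transcripts of these cells and took 3.03% to 4.05% of all counts. It stood at 31807, 32012.5 and 31754 CPM in Control, at 38416, 35516 and 37617 CPM with Ad-OSCAR and at 37066, 37257 and 40648 CPM with 5-ASA. Every Ad-OSCAR culture exceeded every Control culture, by a small margin. The change was 1.17-fold (log2 fold change 0.22, SE 0.038, adjusted p = 4.37e-05, edgeR).

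The other 4 members tested, Clu, Dkk3, Abi3bp and Thbs4, fell by 3.38- to 4.59-fold. Clu (ENSMUSG00000022037.15; chromosome 14, 65968483 to 65981547, plus strand) stood at 155, 133 and 147 CPM in Control, at 30.9, 35.1 and 28.9 CPM with Ad-OSCAR and at 47.5, 44.0 and 44.3 CPM with 5-ASA. Clusterin mRNA was thus 4.59-fold lower with Ad-OSCAR (log2 fold change -2.20, SE 0.069, adjusted p = 4.85e-15, edgeR). Dkk3 (ENSMUSG00000030772.6; chromosome 7, 112116017 to 112159057, minus strand) stood at 396, 391 and 396 CPM in Control, at 116, 117 and 117 CPM with Ad-OSCAR and at 159.8, 145 and 167 CPM with 5-ASA. It varied little within Control and Ad-OSCAR, and the difference between them was 3.38-fold (log2 fold change -1.76, SE 0.050, adjusted p = 1.14e-15, edgeR).

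Abi3bp (ENSMUSG00000035258.15; chromosome 16, 56477878 to 56690135, plus strand) stood at 215, 207 and 190.1 CPM in Control, at 56.0, 63.1 and 56.7 CPM with Ad-OSCAR and at 101, 96.6 and 89.8 CPM with 5-ASA. It was 3.48-fold lower with Ad-OSCAR (log2 fold change -1.80, SE 0.061, adjusted p = 1.36e-14, edgeR). Thbs4 (ENSMUSG00000021702.7; chromosome 13, 92751590 to 92794818, minus strand) was the scarcest of these 4 genes, at 16.8, 19.7 and 18.9 CPM in Control, 4.07, 5.13 and 4.44 CPM with Ad-OSCAR and 5.50, 5.36 and 7.39 CPM with 5-ASA. Thrombospondin-4 mRNA was 4.08-fold lower with Ad-OSCAR (log2 fold change -2.03, SE 0.12, adjusted p = 3.99e-11, edgeR). For all 4 genes the Control and Ad-OSCAR ranges were apart. The chondrocyte markers fell in the same comparison, as given above, and their part in these changes was not tested. In bulk RNA, fewer cells of a type and less RNA per cell cannot be told apart.

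Cilp and Cilp2 were barely detected and did not pass the filter on low counts. Cilp (ENSMUSG00000042254.14; chromosome 9, 65265180 to 65280605, plus strand) had 1, 0 and 4 counts in Control, 2 in each Ad-OSCAR culture and 4, 2 and 4 with 5-ASA, at or near a floor of 3 counts. Cilp2 (ENSMUSG00000044006.8; chromosome 8, 69880369 to 69887687, minus strand) had 8, 5 and 4 counts in Control, 20, 11 and 8 with Ad-OSCAR and 7, 6 and 5 with 5-ASA. In a fit without the filter, Cilp2 had a log2 fold change of 0.84 with Ad-OSCAR (SE 0.51, adjusted p = 0.214, edgeR) and of -1.05 with 5-ASA (SE 0.50, adjusted p = 0.218, edgeR). Without Ad-OSCAR culture 3, the lowest of its group, Cilp2 passed the filter and was called higher with Ad-OSCAR (log2 fold change 1.10, adjusted p = 0.0464, edgeR). It passed only through the 20 and 11 counts left in the group where it was high, so that call is no evidence of a rise. Differences in these 2 genes were otherwise not detectable at this depth, and their absence was not shown.

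**Figure D1:**
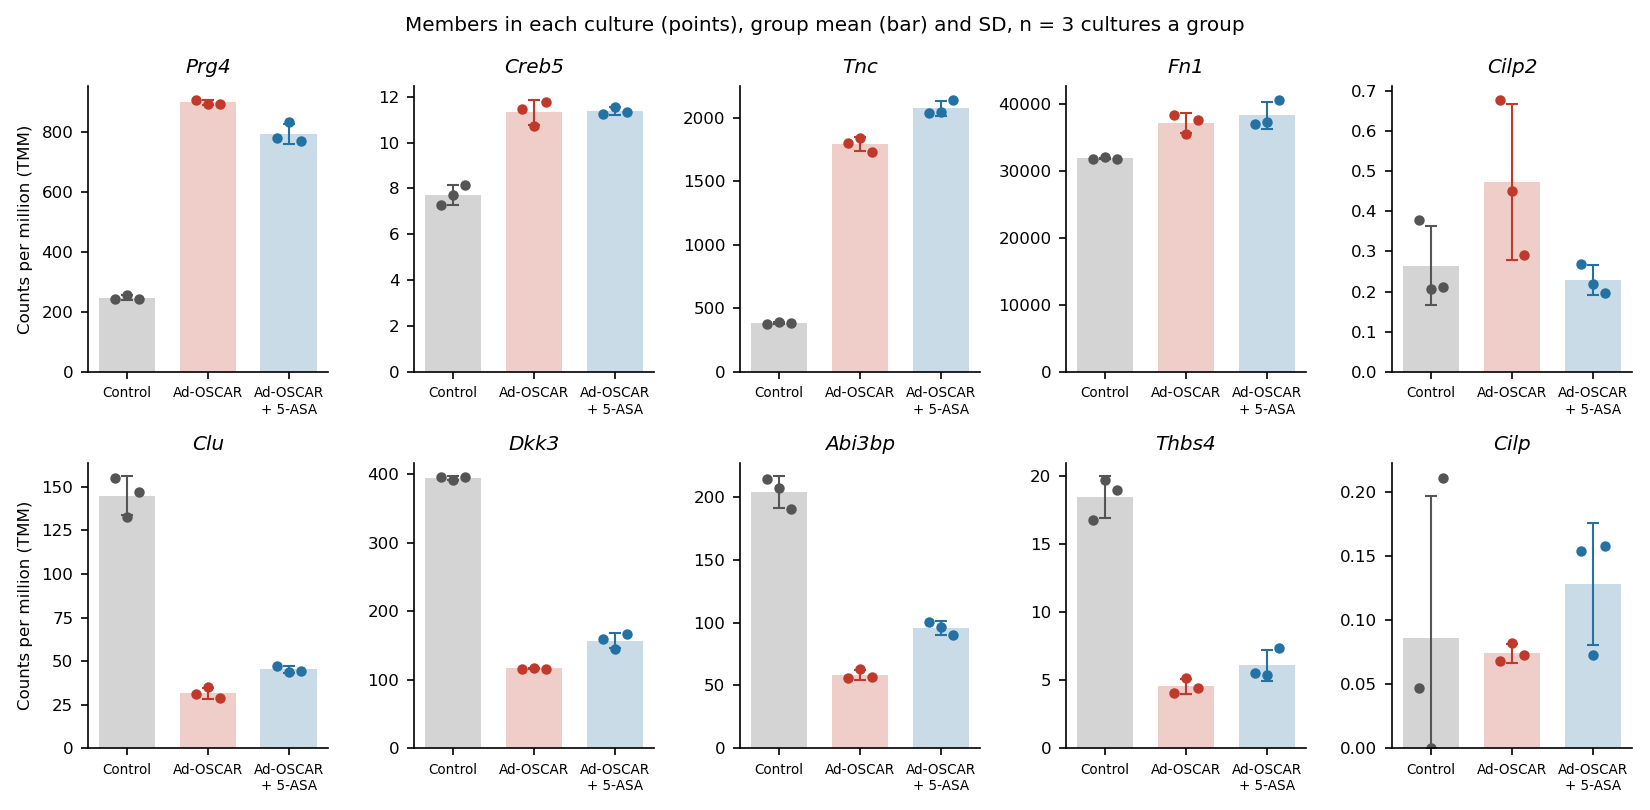
Normalised level of each of the 10 members in CPM (linear axes that start at 0 and differ between panels), with points for cultures, bars for group means and error bars for the SD of 3 cultures. Prg4, Creb5, Tnc and Fn1 stood higher with Ad-OSCAR than in Control, Clu, Dkk3, Abi3bp and Thbs4 lower, and Cilp and Cilp2 stayed below 1 CPM.

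In all, 4 of the 8 members tested were higher and 4 were lower with Ad-OSCAR at an adjusted p below 0.05 (edgeR), when 32.7% of all 15362 genes tested were higher and 32.2% were lower. So many genes passed that a call alone says little about the members. With the study's own criteria for OSCAR, an absolute log2 fold change over 1.5 and an adjusted p below 0.05, Prg4 and Tnc were higher and Clu, Dkk3, Abi3bp and Thbs4 were lower, 2 and 4 of 8, against 4.57% and 5.39% of all genes. Creb5 and Fn1 passed the adjusted p and missed the fold. The members and the lists below were chosen with earlier results of these data known, so setting them beside all genes is not a test of the set. All 8 members had at least 120 counts in every culture, so none entered the test through 1 group alone.

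Of the 4 genes that had fallen with Ad-OSCAR, 5-ASA raised Abi3bp, Clu and Dkk3, with a less stable rise in Thbs4. Creb5 and Fn1 had no detected change. This comparison and that with Control share the Ad-OSCAR cultures, so values that strayed in those cultures would tend to look reversed here. Abi3bp rose most, by 1.64-fold over Ad-OSCAR alone (log2 fold change 0.71, SE 0.061, adjusted p = 2.86e-07, edgeR). Clu rose by 1.43-fold (log2 fold change 0.52, SE 0.071, adjusted p = 4.92e-05, edgeR) and Dkk3 by 1.35-fold (log2 fold change 0.43, SE 0.049, adjusted p = 7.23e-06, edgeR). The treated and untreated ranges of these 3 genes did not overlap.

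For Thbs4 the estimate was 1.34-fold (log2 fold change 0.42, SE 0.13, adjusted p = 0.0357, edgeR), with the untreated cultures reaching 5.13 CPM and the treated ones starting at 5.36 CPM. This call was lost without Ad-OSCAR culture 1 (log2 fold change 0.34, adjusted p = 0.160, edgeR), without Ad-OSCAR culture 3 (0.41, adjusted p = 0.0941, edgeR) and without 5-ASA culture 3 (0.26, adjusted p = 0.188, edgeR). Tnc moved away from Control and gained 1.16-fold (log2 fold change 0.21, SE 0.039, adjusted p = 0.000937, edgeR). On log2(TPM + 1) with limma, the Tnc difference was 0.12 (adjusted p = 0.0917).

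Lubricin mRNA was slightly lower with 5-ASA. Prg4 fell by 0.18 on the log2 scale (SE 0.043, adjusted p = 0.0065, edgeR), 1.13-fold, and the highest treated culture at 831 CPM lay under the lowest untreated one at 893 CPM. The log2 fold change of Creb5 was 0.0064 (95% interval -0.16 to 0.17, adjusted p = 0.974, edgeR) and that of Fn1 was 0.044 (95% interval -0.035 to 0.12, adjusted p = 0.482, edgeR). In this comparison 5 of 8 members were higher and 1 was lower, against 10.4% and 7.38% of all genes at the same threshold. The study's methods set a fold over 1.5 and an unadjusted p below 0.05 for 5-ASA, stated there for treated cells against Ad-Control. Those thresholds, applied here to treated against untreated Ad-OSCAR cultures, left 1 member higher (Abi3bp) and 0 lower, against 2.27% and 1.87% of all genes.

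**Figure D2:**
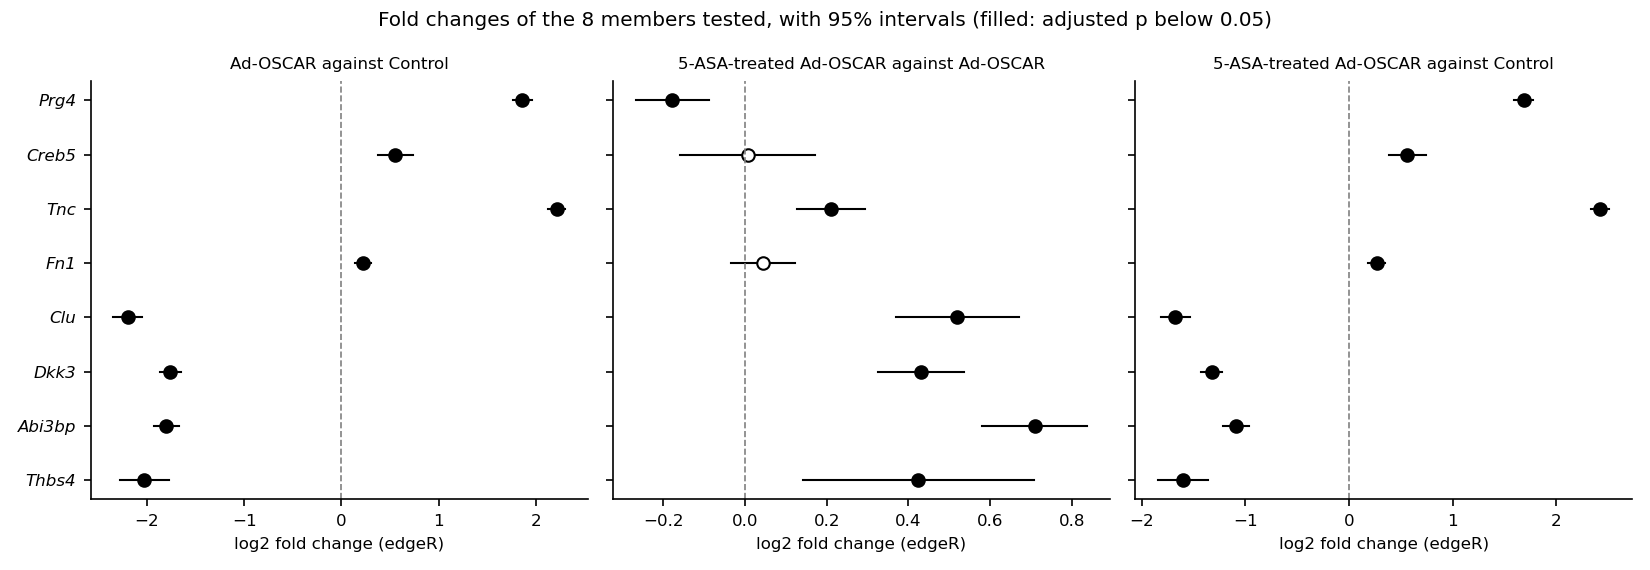
Log2 fold change of the 8 members tested in each comparison (x axis, edgeR), with lines for 95% intervals and filled circles for an adjusted p below 0.05. Tnc and Prg4 lay furthest right with Ad-OSCAR, at 2.22 and 1.86, and Creb5 and Fn1 lay at 0.0064 and 0.044 in the 5-ASA comparison with intervals that include 0.

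Compared with Control directly, the 5-ASA-treated cultures kept the direction of the Ad-OSCAR cultures in all 8 members tested. Both comparisons share the Control cultures, and the values are given side by side. Prg4 stood 3.22-fold above Control with 5-ASA and 3.64-fold without it, Tnc 5.38-fold and 4.64-fold, Creb5 1.48-fold and 1.47-fold, and Fn1 1.20-fold and 1.17-fold. Among the genes that fell, Clu was 3.20-fold below Control with 5-ASA and 4.59-fold without it, Thbs4 3.04-fold and 4.08-fold, Dkk3 2.51-fold and 3.38-fold, and Abi3bp 2.13-fold and 3.48-fold. At an adjusted p below 0.05 (edgeR), 4 of 8 members were higher and 4 were lower than Control, where 31.4% and 31.8% of all genes were. With the fold over 1.5 and unadjusted p below 0.05 that the study's methods state for this comparison, Prg4 and Tnc were higher and Clu, Dkk3, Abi3bp and Thbs4 lower, 2 and 4 of 8, against 14.6% and 15.3% of all genes.

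Levels of different members can be compared per transcript length, on the TPM scale. In Control, Fn1 led at 8281 ± 138 TPM (SD, n = 3), the 9th highest of all genes in the files, followed by Dkk3 at 205 ± 0.266, Clu at 153 ± 12.2, Prg4 at 149 ± 7.92, Tnc at 93.4 ± 1.94, Abi3bp at 91.3 ± 6.17, Thbs4 at 10.1 ± 0.871 and Creb5 at 2.33 ± 0.211 TPM. Clu and Prg4 overlapped between cultures, as did Tnc and Abi3bp. Cilp2 and Cilp were at 0.103 and 0.0367 TPM.

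With Ad-OSCAR the order changed below Fn1. Prg4 came second at 531 ± 23.5 TPM and Tnc next at 444 ± 8.48 TPM, with no overlap between them, while Dkk3, Clu and Abi3bp held 61.8 ± 0.917, 33.6 ± 2.86 and 26.1 ± 0.985 TPM. Creb5, at 3.07 ± 0.280 TPM, overlapped Thbs4 at 2.53 ± 0.256 TPM. With 5-ASA, Tnc at 482 ± 21.5 TPM and Prg4 at 441 ± 28.8 TPM overlapped. Prg4 ranked 925th among all genes by TPM in Control, 215th with Ad-OSCAR and 259th with 5-ASA.

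**Figure D3:**
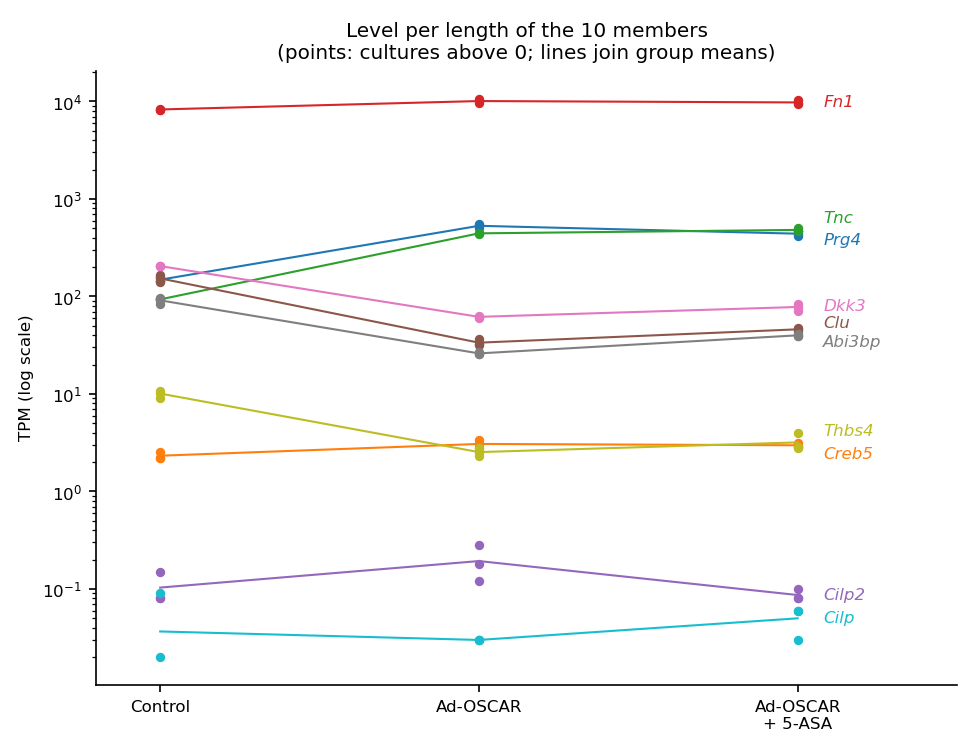
TPM of the 10 members (log y axis) in the 3 groups, with points for cultures above 0 and lines through group means. Prg4 and Tnc rose past Dkk3 and Clu between Control and Ad-OSCAR, from 149 to 531 TPM and from 93.4 to 444 TPM.

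The deposited files also give the mean length of each gene's transcripts, weighted by their estimated abundance, which moves when the mix of annotated transcripts moves. It varied in 6 of the 8 members tested and was fixed for Dkk3 and Thbs4. Creb5, with 15 annotated transcripts, had lengths of 5579, 6012 and 5373 bases in Control, 6503, 6503 and 6164 bases with Ad-OSCAR and 6318, 5872 and 6407 bases with 5-ASA. Its mean with Ad-OSCAR exceeded that of Control by 13.0% (736 bases), and the groups did not overlap. Since TPM divides by length, Creb5 rose by 1.32-fold in TPM against 1.47-fold in counts.

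Abi3bp transcripts were 2.34% longer and Fn1 transcripts 2.26% shorter with Ad-OSCAR, again without overlap. Fn1, which has 17 annotated transcripts and known alternatively spliced exons, measured 6506, 6483 and 6568 bases in Control and 6362, 6275 and 6479 bases with Ad-OSCAR, ranges that lay only narrowly apart. For each of these 3 genes the exact two-sided permutation test gave p = 0.1, the smallest that 3 against 3 cultures allow, and 0.2 after adjustment over the 6 members. Lengths did not overlap in 3 of 6 varying members, against 17% of the 11411 genes whose length varied. Between treated and untreated Ad-OSCAR cultures 0 of 6 did so, against 11.1%, and between treated cultures and Control 2 of 6 did so (Tnc and Fn1), against 18.3%. Prg4 transcripts measured 2925 ± 46.4 bases in Control and 3030.3 ± 71.1 bases with Ad-OSCAR (SD, n = 3), with overlap.

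**Figure D4:**
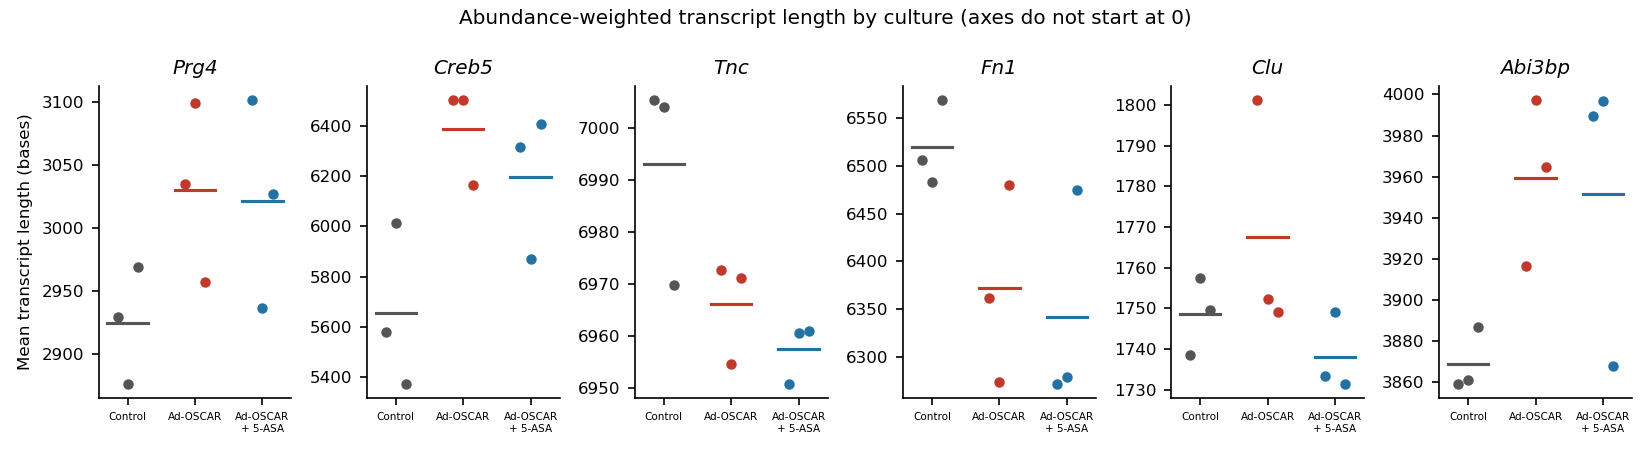
Abundance-weighted mean transcript length in bases (y axes that do not start at 0) for the 6 members in which it varied, with points for cultures and lines for group means. Creb5 moved most, from 5654 bases in Control to 6390.1 bases with Ad-OSCAR, and the Control and Ad-OSCAR points of Prg4, Clu and Tnc overlap.

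Further genes of the cartilage surface did not move as a block. Of 13 surface-layer and joint-surface genes other than the members, 7 were higher, 5 lower and 1 not called with Ad-OSCAR (edgeR, adjusted p below 0.05), with a median log2 fold change of 0.26 against 0.022 for all genes tested. Of all those genes, 32.7% were higher and 32.2% lower. Gdf5, a growth factor of joint formation, rose by 1.5 on the log2 scale (SE 0.061), Thbd (thrombomodulin) by 1.09 (SE 0.042) and Wnt9a, a joint-forming Wnt, by 1.04 (SE 0.18). Vit (vitrin) fell by 3.08 (SE 0.21), Igfbp6, which binds insulin-like growth factors, by 2.40 (SE 0.15) and Osr2, an odd-skipped transcription factor, by 1.25 (SE 0.20). With 5-ASA, 4 surface genes were higher and 2 lower, against 10.4% and 7.38% of all genes. Among the 4 was Vcam1, an adhesion molecule, at 0.42 (SE 0.060). On both TPM scales 1 was higher and 1 lower, and without Ad-OSCAR culture 1 or 5-ASA culture 1 the counts were 3 and 0. Col22a1 had a value of 0.49, and its call was lost without Ad-OSCAR culture 3 or 5-ASA culture 1 (adjusted p = 0.0563 and 0.0989, edgeR). Sema3d had a value of -0.31 and lost its call without Ad-OSCAR culture 1 or 3 or 5-ASA culture 1 or 3 (adjusted p = 0.0631 to 0.141, edgeR). Gdf5 had a value of -0.18 and lost its call without Ad-OSCAR culture 1 or 2 or 5-ASA culture 1 or 2 (adjusted p = 0.0550 to 0.143, edgeR).

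Most of the wider provisional and matricellular matrix fell, in contrast to Tnc and Fn1. Of 27 such genes other than the members, 24 were tested, and 5 were higher, 18 lower and 1 not called with Ad-OSCAR, with a median log2 fold change of -0.97. Among all genes tested, 32.7% were higher and 32.2% lower. Comp, a pentameric thrombospondin that is also one of the chondrocyte markers, fell by 4.71 (SE 0.081), Tgfbi by 3.15 (SE 0.059) and Tnn (tenascin-N) by 2.66 (SE 0.085). The largest rises were in Spp1 (osteopontin) at 1.97 (SE 0.046), Vcan, the large proteoglycan versican, at 1.43 (SE 0.058) and Fbln2 (fibulin-2) at 0.63 (SE 0.053). With 5-ASA, 12 were higher, 4 lower and 8 not called, with a median of 0.18, where 10.4% of all genes were higher and 7.38% lower. Postn (periostin) rose by 0.84 (SE 0.17) and Fbn2 (fibrillin-2) by 0.79 (SE 0.049), while Lgals3 (galectin-3) fell by 0.31 (SE 0.043) and Tnn had a value of -0.40 (SE 0.11), a call lost without Ad-OSCAR culture 1 or 5-ASA culture 2 (adjusted p = 0.0553 and 0.0810, edgeR).

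Of 24 known or proposed regulators of lubricin, 23 were tested, and 9 were higher, 4 lower and 10 not called with Ad-OSCAR, with a median of 0.032. Among all genes tested, 32.7% were higher and 32.2% lower. The 9 include Areg, at 0 counts in Control and at most 22 in any culture, which passed the filter only through the Ad-OSCAR groups. Under a filter of at least 10 counts in every culture, 22 were tested, 8 higher and 4 lower. Lubricin is induced by TGF-β signalling and by EGF-receptor ligands among others. Ereg (epiregulin), an EGF-receptor ligand, rose by 1.63 (SE 0.053), Crem, a CREB-family modulator, by 1.41 (SE 0.087) and Tgfb1 by 1.11 (SE 0.075). Tgfb3 fell by 1.42 (SE 0.056), the receptor gene Tgfbr2 by 1.28 (SE 0.042) and Tgfa, another EGF-receptor ligand, by 0.86 (SE 0.11). The TGF-β signal mediators Smad2, Smad3 and Smad4 had log2 fold changes of -0.0063, -0.12 and -0.020, and Creb1 one of -0.14, none of which passed. With 5-ASA, 6 were higher and 2 lower, against 10.4% and 7.38% of all genes. Among them were Tgfb2 at 0.51 (SE 0.049), Hbegf at 0.40 (SE 0.069), Nfatc1 at -0.28 (SE 0.055) and Ereg at -0.23 (SE 0.051). These splits moved with the scaling. With Ad-OSCAR it was 15 higher and 3 lower under library totals alone and 8 and 8 on both log2(TPM + 1) and log2(TPM + 0.1) with limma. With 5-ASA it was 4 and 4 under library totals alone and 2 and 3 on log2(TPM + 1).

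Receptors for these matrix proteins rose more often than they fell with Ad-OSCAR. Of 17 receptors of fibronectin, tenascin-C, thrombospondins and lubricin, 16 were tested, and 10 were higher, 3 lower and 3 not called with Ad-OSCAR, with a median of 0.38. Among all genes tested, 32.7% were higher and 32.2% lower. Under a filter of at least 10 counts in every culture, 15 receptors were tested, 9 higher and 3 lower. Itga9, the α9 integrin subunit that binds tenascin-C, rose by 3.00 (SE 0.069) from 6.46 ± 0.577 to 51.2 ± 1.66 CPM (SD, n = 3). Itga4, the α4 subunit, rose by 2.61 (SE 0.17), and Itgb3, the β3 subunit, by 2.26 (SE 0.099). Itga8, the partner of β1 in fibronectin and tenascin binding, fell by 0.74 (SE 0.20), the heparan sulfate proteoglycan gene Sdc4 by 0.41 (SE 0.043) and Itgb1 by 0.21 (SE 0.042), and the Itgb1 call was lost under library totals as the only scaling (adjusted p = 0.0916, edgeR). Itga5, the α5 subunit of the main fibronectin receptor, had a value of -0.061 (SE 0.046) that did not pass. With 5-ASA, 6 receptors were higher and 2 lower, against 10.4% and 7.38% of all genes. Among them were Itga8 at 0.85 (SE 0.19), Itga9 at 0.36 (SE 0.050), Tlr2 at -0.43 (SE 0.059) and Itgb3 at -0.43 (SE 0.079). The counts were 3 and 2 without Ad-OSCAR culture 1 or 2, 3 and 3 under library totals alone and 0 and 2 on log2(TPM + 1) with limma.

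Paralogs of the members did not all follow them. Of 13 paralogs, 9 were tested, and 3 were higher, Dkk1 among them, and 6 lower with Ad-OSCAR, with a median of -0.96. Among all genes tested, 32.7% were higher and 32.2% lower. Thbs4 fell together with Comp, Thbs1 at -0.96 (SE 0.035) and Thbs3 at -1.05 (SE 0.062), whereas Thbs2 had a log2 fold change of 0.22 (SE 0.039). Tnc rose while Tnn and Tnxb fell, Tnxb by 2.22 (SE 0.097). Of the nearest relatives of Creb5, Atf2 rose by 0.38 (SE 0.050) and Atf7 fell by 0.32 (SE 0.051). Dkk1, at 0 counts in Control and at most 32 counts in any culture, passed the filter only through the Ad-OSCAR groups. It gives no usable fold, and its call is no evidence of a rise. With 5-ASA, 3 paralogs were higher and 1 lower, against 10.4% and 7.38% of all genes, with Thbs1 at 0.55 (SE 0.035) and Comp at 0.41 (SE 0.077). Of the genes named from the 5 lists, Smad4, Thbs3, Atf7, Itga5, Gdf5, Vit, Col22a1, Vcam1, Sema3d, Spp1, Vcan, Fbn2, Ereg, Crem, Tgfb2, Tgfb3, Tgfa, Nfatc1, Itga4, Itga8, Itga9, Atf2, Tnxb and Thbs1 overlap another annotated gene, so their reads may include its reads.

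**Figure D5:**
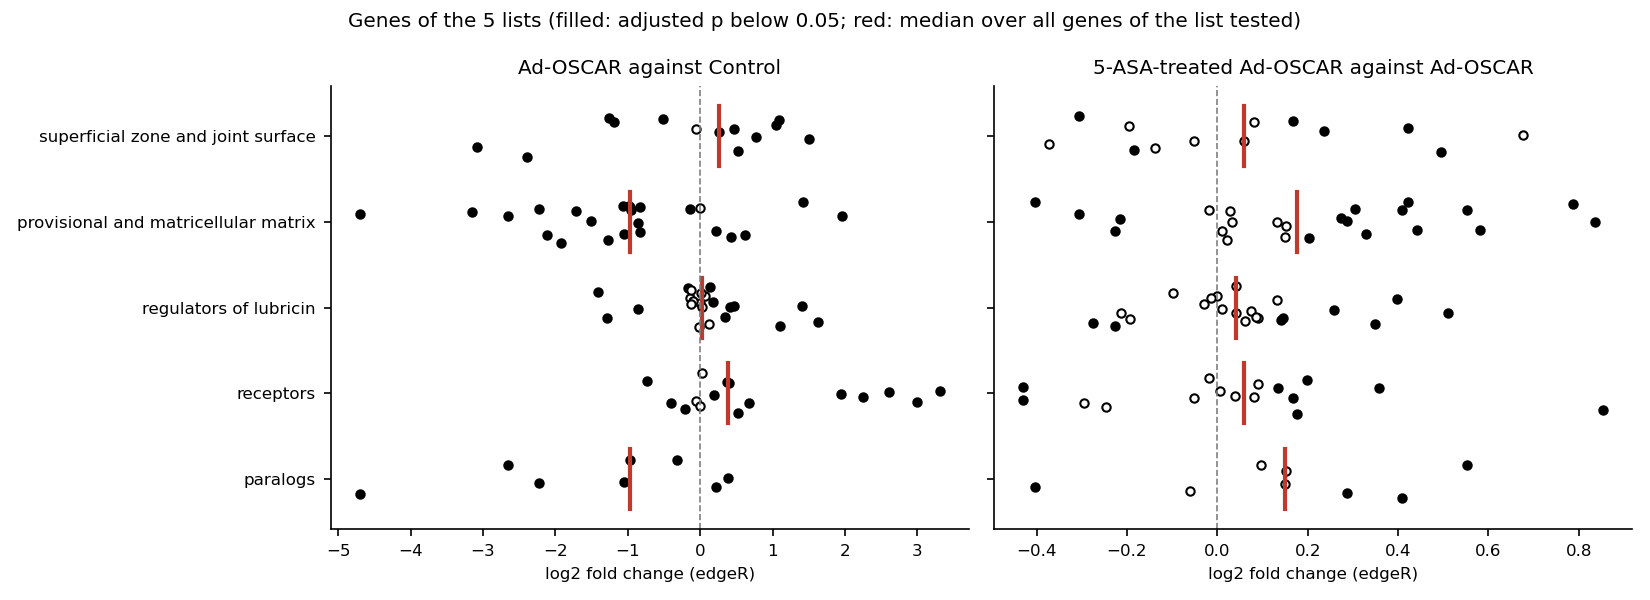
Log2 fold change (x axes with different ranges) of the genes of 5 lists with Ad-OSCAR (left) and with 5-ASA (right), filled where the adjusted p was below 0.05 (edgeR), with a red line at each list's median. The matrix and paralog lists sit mostly left of 0 with Ad-OSCAR, with medians of -0.97 and -0.96, and Areg and Dkk1, at 0 counts in Control, are not drawn.

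Markers of other cell types ranged from near 0 to abundant, and several moved with Ad-OSCAR. Of 9 macrophage markers, Ptprc, Adgre1, C1qa, C1qb and Fcgr1 had at most 3 counts in every culture, and the summed level of all 9 was 7.41 to 9.73 CPM in Control, 14.3 to 14.9 CPM with Ad-OSCAR and 12.4 to 12.9 CPM with 5-ASA. The 4 macrophage markers tested did not move together with Ad-OSCAR. Cd68, a lysosomal glycoprotein, rose by 4.18-fold and Lyz2 by 1.35-fold, while Mrc1 fell by 1.77-fold (edgeR, adjusted p below 0.05). Csf1r was not called. The 6 endothelial markers summed to at most 2.80 CPM. Fibroblast and synovial lining markers, of which cultured chondrocytes express several, summed to 13530 to 14374 CPM in Control, 10125 to 10970 CPM with Ad-OSCAR and 12344.0 to 13528 CPM with 5-ASA, with 3 of 7 tested higher and 4 lower with Ad-OSCAR. That sum joins opposite moves, since Col1a1 was 3.18-fold lower (9195 to 2895 CPM), Thy1 5.78-fold, Dpt 4.23-fold and Pdgfra 1.33-fold lower, while Col3a1 was 1.65-fold, Cdh11 1.62-fold and Cd34 1.3-fold higher (edgeR, adjusted p below 0.05). Col3a1, Cdh11, Cd34, Dpt, Pdgfra, Csf1r and Mrc1 overlap another annotated gene. The 3 tendon markers summed to 23.1 to 28.3 CPM in Control, 15.6 to 18.4 CPM with Ad-OSCAR and 14.2 to 15.1 CPM with 5-ASA. The 3 osteoblast markers summed to 33.4 to 40.3 CPM, 4.73 to 7.18 CPM and 12.4 to 13.6 CPM. Most of this was Ibsp, 6.69-fold lower with Ad-OSCAR than in Control and 2.41-fold higher with 5-ASA than with Ad-OSCAR alone. The 3 muscle markers summed to at most 1.11 CPM. The part of these shifts in the members' changes was not tested.

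Among 13266 genes with a mean of at least 1 CPM, the pattern over the 9 cultures most like that of Prg4 was that of Alcam, with a root mean square difference of 0.0501 in centred log2 CPM, followed by Tgif1 at 0.0635 and Irak2 at 0.0753. Alcam rose from 82.3 to 306 CPM with Ad-OSCAR and stood at 278 CPM with 5-ASA. The nearest gene was Zfp281 for Creb5 (0.0446), Col23a1 for Tnc (0.0621), Fosl2 for Fn1 (0.0235), Klhdc8a for Clu (0.0583), Fads2 for Dkk3 (0.0478), Cxcl12 for Abi3bp (0.0523) and Lamb3 for Thbs4 (0.111). Cxcl12, like Abi3bp, was lowest with Ad-OSCAR, at 347, 102 and 167 CPM in Control, Ad-OSCAR and 5-ASA. These likenesses describe levels in 9 shared libraries and carry no test.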

How the data were processed

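Poly(A) RNA libraries from 9 cultures were sequenced by the study's authors. Per the labels, FastQC, STAR 2.7.1a and RSEM 1.3.1 were used with GRCm38 (mm10). The deposited files hold, per gene, the authors' RSEM estimated counts, not scaled to a common total, their TPM, which are scaled to each library and carry no depth, and their abundance-weighted transcript length in bases. The strand setting is not given in the sources used here.

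Estimated counts were rounded and tested in R 4.3.3 with edgeR 4.0.16 (TMM, filterByExpr by group, quasi-likelihood F test) fitting the 9 cultures together by group (6 residual degrees of freedom). The filter left 15362 genes, over which p was adjusted by Benjamini-Hochberg. Precision rests on total counts of 19733448 to 28192740 and on the spread between cultures, with a biological coefficient of variation of 5.11%. No 2 cultures of a group agreed within sampling noise (chi-square per degree of freedom 4.15 to 7.96). Transcript lengths were compared by exact permutation tests over cultures. Gene lists are described by counts and medians. Alternatives were RLE or plain library scaling, other filters, DESeq2 1.42.0, limma 3.58.1 on log2(TPM + 1) and log2(TPM + 0.1), 2 groups alone, robust dispersion, a replicate block and each culture left out. Applying them to the list genes was added after seeing the data. On counts simulated for Ad-OSCAR against Control over 15362 genes, 77% of changes of 0.5 and 84% of changes of 1 (log2) were recovered, with 13 of 15162 unchanged genes called. The simulation changed 100 genes at each size, as many up as down, whereas 5031 and 4952 genes were called in the data. Its rates therefore do not describe the errors of the real comparison.

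Symbols and coordinates come from GENCODE M21, in which 55230 of 55471 identifiers were found, and promoters from RefSeq. All members are named. From each list, up to 3 genes per direction (2 for 5-ASA) with the largest fold change are named where the adjusted p was below 0.05, the groups did not overlap and the mean reached 1 CPM. Comp, Thbs1 and Thbs3 (as relatives of Thbs4), Atf7, Dkk1, Areg, Smad2, Smad3, Smad4, Creb1, Itga5 and the single markers of other cell types were named after their values were seen. The members and lists were chosen with earlier results of these data known. The study used DESeq2 with its own thresholds, which are given beside the adjusted p. Its methods define 5-ASA genes against Ad-Control, so applying the 5-ASA thresholds to treated against untreated Ad-OSCAR cultures is a choice made here. Tables were made with pandas 2.3.3 and numpy 2.4.6 in Python 3.11.15, permutation tests with scipy 1.17.1 and figures with matplotlib 3.10.9.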

Additional observations from a re-analysis of the deposited data

How the results depend on the processing

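For Ad-OSCAR against Control and for 5-ASA-treated cultures against Control, all 160 member values computed under the alternatives in each comparison kept their direction and call. For 5-ASA-treated against untreated Ad-OSCAR, 141 of 160 did, 10 lost the call and 9 changed sign. The number of members called higher there was 5, fell to 3 on both log2(TPM + 1) and log2(TPM + 0.1) and was 4 to 5 when each culture was left out (4 without Ad-OSCAR replicate 1 or 3 or 5-ASA replicate 3). With Ad-OSCAR it was 4 to 5 by leave-one-out. The added member was Cilp2, called without Ad-OSCAR replicate 3. It had passed the filter only through its counts of 20 and 11 in the other Ad-OSCAR cultures. Creb5 turned to -0.065 with plain library size, -0.033 and -0.042 on the TPM scales and ranged from -0.033 to 0.033 by leave-one-out (-0.033 without Ad-OSCAR replicate 2, -0.0050 without 5-ASA replicate 2). Fn1 turned to -0.027 with plain library size and -0.047 on both TPM scales, and ranged from -0.00027 (without 5-ASA replicate 3) to 0.068 by leave-one-out. Neither gene was called under any alternative. The Thbs4 log2 fold change of 0.42 ranged from 0.24 to 0.51 over all alternatives. Its call was also lost with plain library size (0.35, adjusted p = 0.0672, edgeR), on 2 groups with DESeq2 (0.42, adjusted p = 0.118) or edgeR (0.42, adjusted p = 0.0504) and with limma on TPM (0.24 and 0.31, adjusted p = 0.229 and 0.214). The Tnc call, at 0.21, was lost on both TPM scales with limma (0.12, adjusted p = 0.0917 and 0.0954). The cause was not tested. Plain library size moved the median of all genes with Ad-OSCAR by 0.13 on the log2 scale, and the split of higher and lower genes from 5031 and 4952 to 6609 and 3907. For 5-ASA the split of 1598 and 1134 became 1057 and 2523, and 562 and 1487 or 560 and 1439 on TPM. For treated cultures against Control, log2(TPM + 1) gave 3352 higher and 5069 lower genes, against 4825 and 4880.

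Replicate numbers are shared across groups. Between cultures that carry the same number, deviations correlated by -0.0724 to 0.0402. With 3 cultures per group, such low values cannot decide whether these cultures share an animal or a preparation, and the labels do not say. With the replicate block, 5 members were higher and 1 lower with 5-ASA, with no member call changed in any comparison, while all calls went from 1598 and 1134 to 1483 and 1017. Of the list genes named for 5-ASA, Gdf5 was lost under the block (adjusted p = 0.0544, edgeR), and Vcam1, Hbegf, Itga8 and Itga9 were lost on both TPM scales (adjusted p = 0.0650 to 0.608, limma). The small positive 5-ASA medians of the surface, regulator and receptor lists turned to -0.011, -0.030 and -0.011 with plain library size and to -0.037, -0.027 and -0.013 on log2(TPM + 1), where the paralog median was -0.042. Depth limits what can be said of Cilp and Cilp2 most. Thbs4, with 120 to 125 counts with Ad-OSCAR and 143 to 187 with 5-ASA, is limited too. So is Creb5, with 154 to 338 counts in any culture. Both had a larger SE than the more abundant members. Intervals cover counting error and the spread between cultures only.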
